A study of Mus musculus with 15 samples.

Results

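The genes described here encode neuropeptide Y (Npy), somatostatin (Sst) and the related peptide cortistatin (Cort), together with the NPY receptors Npy1r, Npy2r and Npy5r and the somatostatin receptors Sstr1, Sstr2, Sstr3 and Sstr4. They were chosen by symbol, with earlier results of these data known, as the ligands and receptors of 2 peptide systems. They are 10 of the 26628 genes in the expression table, and all 10 were among the 15213 genes tested.

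RNA was sequenced from the whole cerebellum (Ce) and the whole striatum (St) of male Hsd:ICR mice, labelled 6 weeks old, from 2 breeding lines, 1 selected for running far on wheels (Hi) and 1 kept as its control (Co). All mice, controls included, had lived with a running wheel for 7 days. The groups were CeCo, CeHi and StCo with 4 samples each and StHi with 3, a further StHi sample having been dropped by the authors as an outlier among principal components. Each arm is represented by a single breeding line, so a difference between Co and Hi is a difference between these lines, and an effect of selection cannot be told apart from other differences between them. The labels do not say whether the Ce and the St sample of the same number came from 1 mouse. The direction of every line difference rests on the labels of the deposited samples, since no gene in the table shows by itself which line a mouse came from. Whether the line labels of the samples are exchanged could not be settled from the table, and if they were, the sign of every difference Co minus Hi given here would turn.

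Neuropeptide Y and somatostatin are peptides released by inhibitory neurons. In the striatum both are made by a sparse class of GABAergic interneurons, which also carry nitric oxide synthase, and NPY alone is made by neurogliaform interneurons. All receptors of both families couple to inhibitory Gi/o proteins, which lower adenylyl cyclase activity and open inwardly rectifying potassium channels. The neurons of the cerebellum are for the most part granule cells, which are excitatory.

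The values are normalized counts, that is, numbers of sequenced fragments per gene divided by a factor per sample, so that 1 fragment was worth 0.841 to 1.30 normalized counts and a sample held 32909389 to 47485707 fragments in all. Replicates are named by the number in their labels, from 0 to 3. Per the study's methods, no mice were full sibs or half-sibs and each was housed alone, and P-values measure the spread between these samples. Within groups, samples correlated with r between 0.993 and 0.996 across genes. The tissue labels held in the markers. All 7 granule cell markers and 6 of 7 Purkinje cell markers were higher in the Ce, and all 11 markers of medium spiny neurons, the projection neurons of the striatum, were higher in the St.

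One library stood apart in the Ce. CeHi replicate 3 had the highest value of the Ce samples for 8 of the 11 medium spiny neuron markers. As a share of the mean St level, their median was 1.76% there, and it ranged from 0.453% to 0.598% over the remaining 7 Ce libraries. These medians do not give a fold rise, since the gene in the middle changed. In replicate 3 it was Rgs9, which already stood at 1.33% to 1.55% in replicates 0 to 2 of CeHi. Single markers rose unequally. Adora2a was at 0.766% in replicate 3, with 0.512% to 0.624% in CeCo, and Drd2 at 2.41%, with 0.415% to 0.723% in CeCo. This library also held 98.3 normalized counts of Vip, a peptide of cortical interneurons, where the other Ce samples held 0.892 to 7.46. It held 2450 of Nrgn, a forebrain neuron gene, against 184 to 279. Of the 14 genes listed for Npy and Sst interneurons, 6 were highest in this library, such as Crhbp, at 27.5 against 0.892 to 5.59. Reln of that list was lowest in it, at 8362 against 10920 to 14426. Of the 11 medium spiny neuron markers Pde10a was lowest in it, at 3567 against 4675 to 6147, and their sum was 14933 against 14473 to 16606. Other forebrain markers were not raised in this library, such as Neurod6, at 161 against 129 to 175, and Tbr1, at 38.0 against 28.6 to 45.4. Line differences of the members in the Ce are therefore given with and without this library, and the part of these transcripts in the values was not tested.

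Somatostatin and cortistatin are encoded by separate genes whose last coding bases are closely alike, and these bases encode the mature peptides that the same receptors bind. The stretches below are the last 42 coding bases of Sst and the aligned bases of Cort, read in coding direction from GENCODE M21 transcripts on GRCm38. Capitals mark bases that are the same in both genes, 31 of 42 (73.8%), with a longest shared run of 21.
Sst, chr16:23889732-23889773, minus strand: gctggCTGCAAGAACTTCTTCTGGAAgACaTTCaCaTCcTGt
Cort, chr4:149125270-149125311, minus strand: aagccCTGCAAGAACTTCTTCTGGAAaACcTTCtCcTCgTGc

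Some promoters are shown as sequence context, chosen after the values were seen, and no test links their letters to the levels. Sst and Sstr2 were the members with the largest differences between St and Ce, and they were also the only members, of the 9 with an entry, with a full cAMP response element, TGACGTCA, in the 250 bases before the RefSeq start site. This element is the binding site of the activity-regulated factor CREB. The members have 10 promoter entries, with 2 for Sstr3 and none for Sstr1. The element was found in 2 of these 10 entries, and in 508 of all 32851 promoter entries (1.55%). Its core TGACG, searched on both strands and contained in the full element, was found in 4 of the 10 entries and in 17.8% of all. Npy5r and Sstr4, the next members by size of the region difference, lacked the full element, and Cort, with the smallest called region difference, held the core. A match describes the letters only. The Sst stretch is limited to 30 bases around the element, which lies 48 bases before the RefSeq start. GENCODE M21 places the start of Sst farther upstream, at 23890958, so by that annotation the stretch lies within the gene. The Sstr2 element lies 58 bases before its RefSeq start. The Npy promoter, which held neither pattern, is given because Npy was the member that differed between the lines. Sequences are from RefSeq on GRCm38.p6, 5′ to 3′ on the strand of the gene, and capitals mark the element.
Sst, chr16:23890874-23890903, minus strand: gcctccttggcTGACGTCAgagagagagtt
Sstr2, chr11:113619077-113619326, plus strand: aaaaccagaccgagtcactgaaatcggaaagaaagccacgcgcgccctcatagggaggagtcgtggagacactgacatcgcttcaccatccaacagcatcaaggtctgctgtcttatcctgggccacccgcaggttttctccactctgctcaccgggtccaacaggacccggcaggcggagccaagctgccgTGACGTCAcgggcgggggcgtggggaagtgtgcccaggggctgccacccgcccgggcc
Npy, chr6:49822460-49822709, plus strand: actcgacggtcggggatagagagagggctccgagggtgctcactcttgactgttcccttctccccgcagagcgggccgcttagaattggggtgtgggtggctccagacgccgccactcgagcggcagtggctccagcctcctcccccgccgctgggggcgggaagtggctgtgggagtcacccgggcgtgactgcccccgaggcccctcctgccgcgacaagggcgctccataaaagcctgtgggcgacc

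Npy, a single gene on the plus strand of chromosome 6 at 49822710 to 49829507 with no overlapping gene, was higher in the cerebellum samples labelled Hi than in those labelled Co. In the CeCo samples, replicates 0 to 3, Npy stood at 138, 177, 192 and 159 normalized counts. In the CeHi samples it stood at 383, 297, 378 and 569. The lowest CeHi sample was above the highest CeCo sample, and the highest was replicate 3, the library that stood apart. CeHi mice averaged 407 ± 115 (SD, n = 4), which was 2.45 times the CeCo mean of 166 ± 23.3 (n = 4). Without replicate 3 the CeHi mean was 353 ± 48.1 (n = 3), 2.12 times that of CeCo. The log2 difference CeCo minus CeHi was −1.25 (SE 0.16, limma adjusted P-value 0.000168), and −1.08 (SE 0.13, adjusted P-value 6.31e-05) without replicate 3. Npy ranked 121st by adjusted P-value among the genes tested. It was the 1 member of 10 that passed the test in the Ce, where 5.94% of all genes did. Groups of samples that did not overlap were seen for 2 members in the Ce and for 13.6% of all genes. In whole tissue, more cells that express a gene and more RNA per cell cannot be told apart.

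In the striatum Npy did not separate the lines. The StCo samples held 4130.0, 3072, 3139 and 3634 normalized counts, and the StHi samples 3496, 3230.0 and 3014. All 3 StHi values lay within or just below the StCo range. The log2 difference StCo minus StHi was 0.10 (SE 0.17, limma adjusted P-value 0.877).

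The Npy difference between lines was itself different between the regions. The interaction, the Ce difference minus the St difference, was −1.35 on the log2 scale (SE 0.24, limma adjusted P-value 0.0172), and Npy was the 1 member of 10 that passed, against 0.532% of all genes. Without CeHi replicate 3 it was −1.18 (SE 0.18, adjusted P-value 0.00598). It lost the call without StHi replicate 2, with −1.30 and an adjusted P-value of 0.0545, and with the replicate number as a block within each line, with −1.18 and 0.0527. As a share of the striatal level, Npy in the Ce amounted to 4.76% in Co and to 12.5% in Hi mice, or 10.9% without replicate 3. Averaged over both regions, the line difference of Npy was −0.57 (SE 0.12, limma adjusted P-value 0.00664). This average joins unlike differences, −1.25 in the Ce and 0.10 in the St. Its P-value takes all 15 samples as separate, though Ce and St samples may share a mouse. Npy was again the 1 member called, against 8.48% of all genes.

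**Figure D1:**
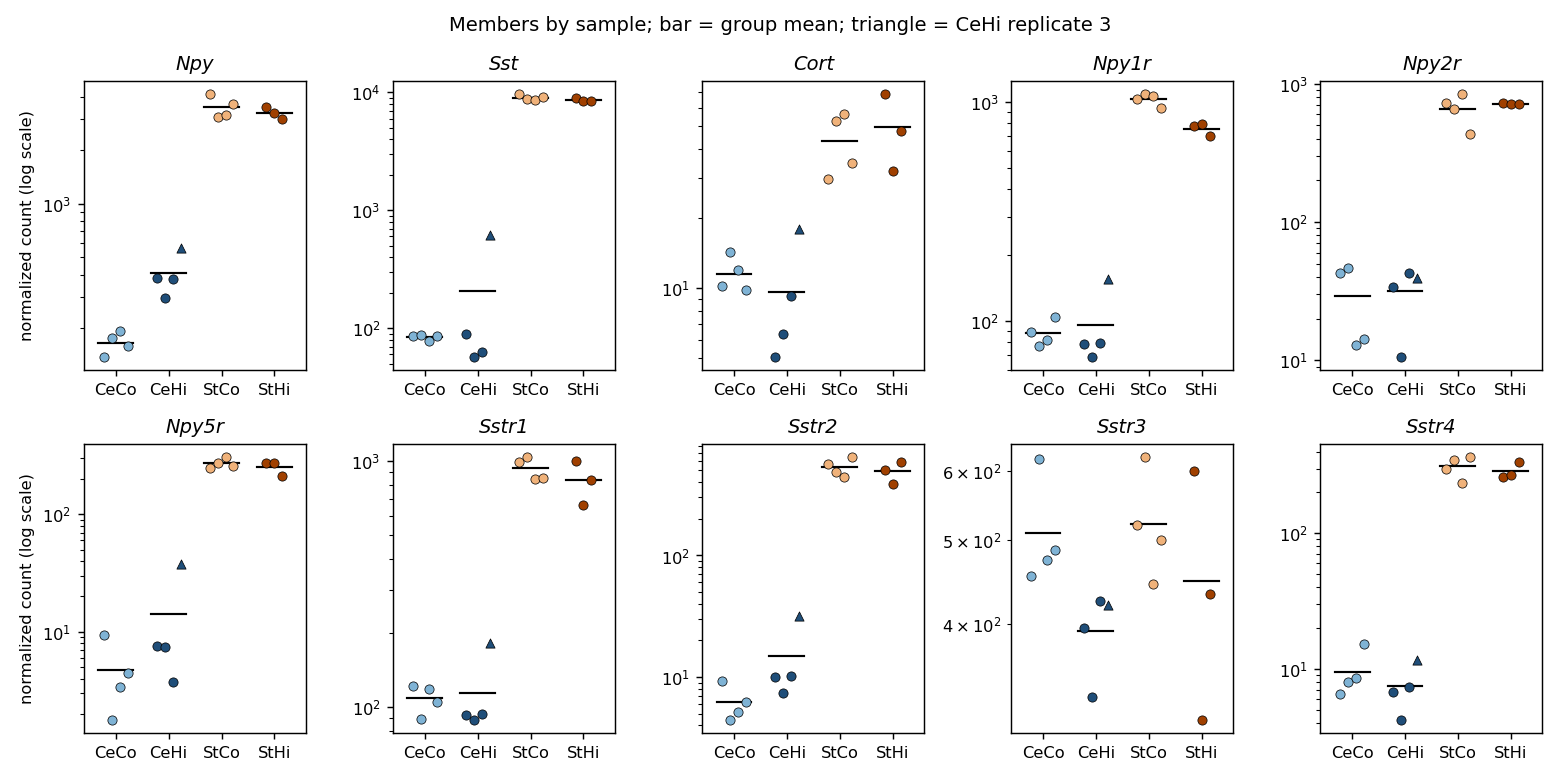
Normalized counts of the 10 members in each sample, on a log axis that differs between panels. Points are samples, horizontal bars are group means, and the triangle is CeHi replicate 3. Npy in CeHi, at 297 to 569, lies above CeCo, at 138 to 192, and every member but Sstr3 is higher in all St than in all Ce samples.

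Sst, on the minus strand of chromosome 16 at 23889573 to 23890958, was the most abundant member in the striatum, and no line difference passed the test. The StCo samples held 9663, 8850.3, 8626 and 9071 normalized counts and the StHi samples 8968, 8496 and 8472. These values were within a narrow band, with a coefficient of variation of 4.92% in StCo and 3.23% in StHi. The log2 difference StCo minus StHi was 0.07 (SE 0.62, limma adjusted P-value 0.984), where the SE is shared with the Ce and carries the spread of CeHi replicate 3. Without that library the difference was 0.06 (SE 0.11).

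Sst was far lower in the cerebellum, where the CeCo mean was 0.936% of the StCo mean, and 1 library stood out. The CeCo samples held 85.7, 88.3, 78.5 and 86.4 normalized counts, and the CeHi samples 89.1, 57.0, 63.0 and 613. The value of 613 in CeHi replicate 3 was 7.83 times the mean of the other 7 Ce samples. With it, the CeHi mean was 2.43 times that of CeCo, and without it 0.823 times. The log2 difference CeCo minus CeHi was accordingly −0.48 (SE 0.58, limma adjusted P-value 0.712) with the library and 0.31 (SE 0.11, adjusted P-value 0.141) without it, so its sign rested on this library and neither fit called it. Npy and Sst thus parted in the Ce. In the 3 CeHi samples other than replicate 3, Npy was above every CeCo sample, and Sst ranged from 57.0 to 89.1 against 78.5 to 88.3 in CeCo.

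Cort, on the minus strand of chromosome 4 at 149125034 to 149126763, was the least abundant ligand in all groups. The gene of the centromere protein Cenps lies 357 bases away. Cort stood at 9.80 to 14.3 normalized counts in CeCo, 5.05 to 18.0 in CeHi, 29.6 to 56.7 in StCo and 32.0 to 68.7 in StHi, with 6 to 54 fragments behind each value. The lines overlapped in both regions. The log2 difference was 0.37 (SE 0.35, limma adjusted P-value 0.602) between CeCo and CeHi, and 0.70 (SE 0.31, adjusted P-value 0.264) without CeHi replicate 3, which held the highest Ce value. It was −0.16 (SE 0.37, adjusted P-value 0.919) between StCo and StHi.

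Among the NPY receptors, Npy1r came closest to a difference between the lines, in the striatum. Npy1r encodes the Y1 receptor, a mainly postsynaptic receptor, and lies on the plus strand of chromosome 8 at 66697192 to 66706792. It was at 1028, 1087, 1067 and 938 normalized counts in StCo and at 780, 791 and 702 in StHi. The lowest StCo sample was above the highest StHi sample, and Npy1r was the 1 member without overlap in the St, where 13.1% of all genes did not overlap. StCo mice averaged 1030.0 ± 66.1 (SD, n = 4), which was 1.36 times the StHi mean of 758 ± 48.7 (n = 3). With all samples in 1 fit the log2 difference of 0.45 (SE 0.20) did not pass, with a limma adjusted P-value of 0.324 and 0.0412 before adjustment. No member of 10 was called in the St, where 2.66% of all genes were. An unadjusted limma P-value under 0.05 was held by 1 member, Npy1r, and by 2141 of all 15213 genes tested. Npy1r passed without CeHi replicate 3 (0.44, SE 0.11, adjusted P-value 0.0409) and when the St was fitted alone (SE 0.08, adjusted P-value 0.0154). It did not pass in the other 23 alternatives, edgeR included (adjusted P-value 0.217). Of these 23, the replicate block within line does not check a line difference within a region. Beside this, the sum of 5 oligodendrocyte markers was 187169 to 271494 normalized counts in StCo and 285052 to 325985 in StHi, without overlap. All 7 cortical excitatory neuron markers had a positive difference StCo minus StHi, with a median of 0.56 and values of 0.94 (SE 0.26) for Neurod6 and 0.65 (SE 0.19) for Slc17a7, and their sum was 75962 to 105695 in StCo and 54879 to 90261 in StHi. None of these 12 markers was called (limma adjusted P-values from 0.0748), and their part in the Npy1r difference was not tested. In the Ce, Npy1r was at 76.7 to 104 in CeCo, at 68.6 to 79.7 in 3 CeHi samples and at 155 in CeHi replicate 3. Its difference there was −0.04 (SE 0.19), and 0.21 (SE 0.11) without that replicate.

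Npy5r, the Y5 receptor, is the neighbour of Npy1r on chromosome 8, read in the opposite direction, with 9064 bases between the start sites. It did not follow the Npy1r pattern in the St. Npy5r was at 248, 272, 309 and 256 normalized counts in StCo and 272, 276 and 213 in StHi, with overlap and a log2 difference of 0.11 (SE 0.55). In the Ce it was near the limit of what could be counted. All Ce samples but 1 held 1.78 to 9.32, from 2 fragments upward, and CeHi replicate 3 held 38.0. The log2 difference of −1.06 in the Ce (SE 0.51, limma adjusted P-value 0.264) came down to −0.44 (SE 0.34) without that replicate.

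Npy2r encodes the Y2 receptor, which acts mainly as a presynaptic autoreceptor on NPY terminals, and lies on chromosome 3 at 82538383 to 82548084. The StCo samples held 723, 652, 840.1 and 430 normalized counts and the StHi samples 722, 712 and 711. The StHi samples were almost equal and lay inside the broad StCo range. In the Ce the values were split within both lines, with 42.9, 46.4, 12.8 and 14.2 in CeCo and 33.6, 10.5, 42.6 and 39.1 in CeHi. The coefficient of variation was 62.0% in CeCo and 0.884% in StHi. Line differences on the log2 scale were −0.16 (SE 0.46) for the Ce, −0.15 (SE 0.50) for the St, and neither passed (limma adjusted P-values 0.885 and 0.949). Without CeHi replicate 3 the Ce difference was −0.01 (SE 0.51).

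Sstr3 differed from the other somatostatin receptors in where it was expressed. This receptor, on chromosome 15 at 78537008 to 78544685, is known for its place in neuronal cilia. It was at 455, 619, 474 and 486 normalized counts in CeCo and at 396, 330.2, 425 and 421 in CeHi. The highest CeHi sample was below the lowest CeCo sample, so Sstr3 was the other member without overlap in the Ce. CeCo mice averaged 508 ± 74.7 (SD, n = 4), against 393 ± 43.8 (n = 4) for CeHi mice. The log2 difference of 0.37 (SE 0.16) had a P-value of 0.0384 before and 0.221 after adjustment (limma), and was not called. Without CeHi replicate 3 it was 0.41 (SE 0.18, adjusted P-value 0.268). In the St the samples held 520, 622, 445 and 500.0 in StCo and 599, 311 and 433 in StHi, which overlapped, with a log2 difference of 0.27 (SE 0.18, adjusted P-value 0.577). The difference between regions, Ce minus St, was −0.10 (SE 0.12, adjusted P-value 0.475), and in direct ratios StCo was 1.03 times CeCo.

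Sstr1 was the somatostatin receptor with the highest striatal level per kilobase of exon. It lies on chromosome 12 at 58211772 to 58214444. Sstr1 was at 846 to 1040 normalized counts in StCo and 665 to 1003 in StHi, and at 89.2 to 122 in CeCo and 88.6 to 93.6 in 3 CeHi samples, with 182 in CeHi replicate 3. The lines overlapped in both regions, and Co minus Hi was −0.01 (SE 0.20) on the log2 scale in the Ce, against 0.18 (SE 0.21) in the St. Without CeHi replicate 3 the Ce difference was 0.24 (SE 0.14, limma adjusted P-value 0.418).

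Sstr2, on chromosome 11 at 113619342 to 113626028 within the span of Slc39a11, was nearly confined to the striatum. Reads of the 2 genes may not be separable where they overlap, since strand-specific counting is not stated. The St samples held 442 to 646 normalized counts in StCo and 386 to 591 in StHi. The CeCo samples held 9.32, 4.46, 5.12 and 6.23 and the CeHi samples 10.1, 7.38, 10.2 and 31.7. Of the CeHi samples 3 were above every CeCo sample, and replicate 1 was inside the CeCo range. The log2 difference in the Ce was −0.94 (SE 0.33) with a P-value of 0.0125 before and 0.116 after adjustment (limma), and −0.52 (SE 0.23, adjusted P-value 0.250) without CeHi replicate 3. These counts amounted to 5 to 30 fragments per Ce sample.

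Sstr4 has a single exon, on chromosome 2 at 148395344 to 148396767. It was at 236 to 366 normalized counts in StCo, 258 to 334 in StHi, 6.52 to 15.1 in CeCo and 4.22 to 11.6 in CeHi. No line difference passed, Co minus Hi being 0.33 (SE 0.27) on the log2 scale in the Ce, against 0.11 (SE 0.29) in the St. Without CeHi replicate 3 the Ce difference was 0.54 (SE 0.26, limma adjusted P-value 0.300). Unlike the transcripts of Sst, Npy5r and Sstr2, those of Sstr4 and Npy2r in CeHi replicate 3, at 11.6 and 39.1, lay inside the range of the other Ce samples.

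**Figure D2:**
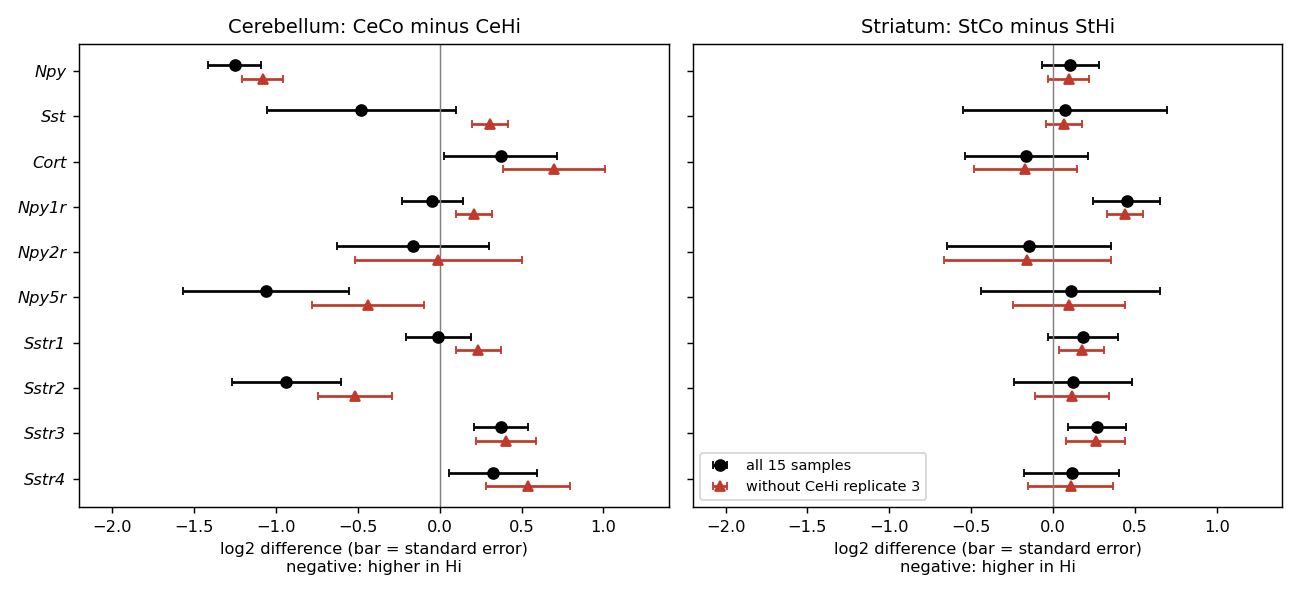
Log2 differences between the lines, Co minus Hi, in the Ce (left) and St (right), with standard errors from limma, for all 15 samples (circles) and without CeHi replicate 3 (triangles). Npy in the Ce stays at −1.25 and −1.08, while Sst in the Ce moves from −0.48 to 0.31.

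Over the members as a group, the median log2 difference between lines was −0.10 for the Ce, and 0.11 for the St, where the median of all genes tested was 0.00 in each case. A negative sign was held by 7 of the 10 members in the Ce, but by 2 in the St. In the Ce 3 members had an unadjusted limma P-value under 0.05, Npy, Sstr2 and Sstr3, as had 2990 of all 15213 genes tested. Of these 3 members Npy alone was called. The median interaction was −0.34 against −0.00 over all genes. The interactions of Npy and Sstr2 had an unadjusted limma P-value under 0.05, as had those of 1454 of all 15213 genes tested. Without CeHi replicate 3 the median was 0.22 in the Ce and 0.10 for the interaction, 4 of the 10 members had a negative sign in the Ce, and Npy was again called in both.

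**Figure D3:**
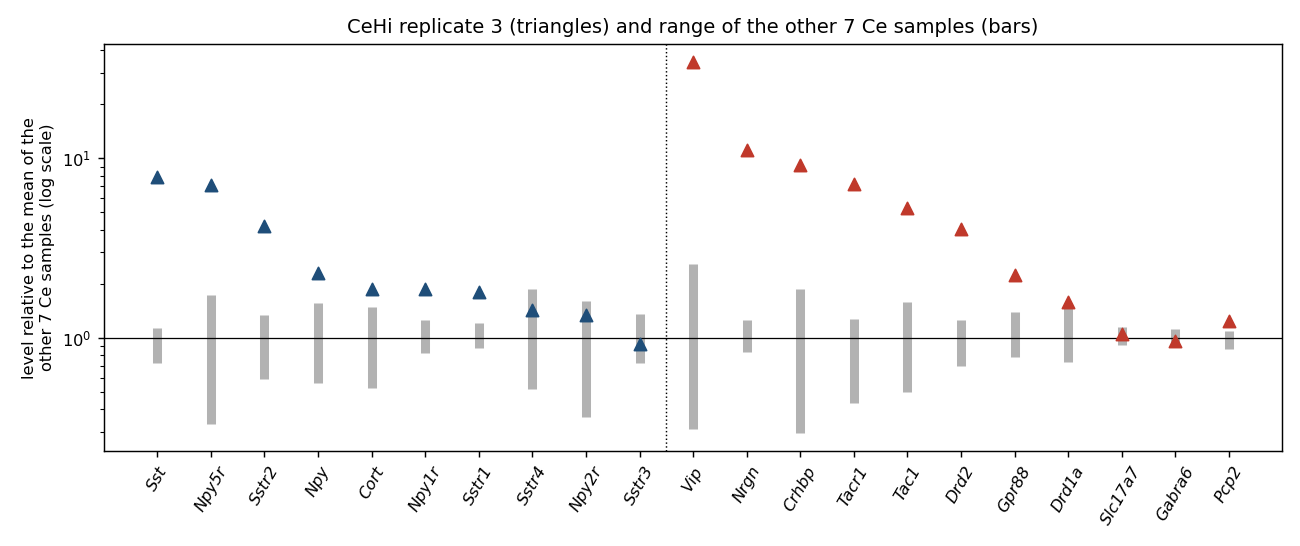
Level in CeHi replicate 3 (triangles) relative to the mean of the other 7 Ce samples, whose range is given by the grey bars, on a log axis. Members are on the left, and on the right are genes of other lists chosen after their values were seen. Sst reaches 7.83, Npy5r 7.08, Sstr2 4.204 and Npy 2.31, and Sstr3, at 0.924, stays inside the bar.

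The ratio of CeHi replicate 3 to the mean of the other Ce samples was 7.83 for Sst, 7.08 for Npy5r, 4.204 for Sstr2 and 2.31 for Npy. It was 1.88 for Cort, 1.88 for Npy1r and 1.80 for Sstr1, and these 7 members had their highest Ce value in this library. Npy was the only one of the 7 for which the other CeHi samples were already all above CeCo. The other 3 members were at 1.44 (Sstr4), 1.35 (Npy2r) and 0.924 (Sstr3), within the range of the other Ce samples.

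The difference between regions was far larger than that between lines for all members but Sstr3. Of the 10 members 9 were called between Ce and St, all of them higher in the St, where 80.2% of all genes were called and 39.6% were called as higher in the St. The median log2 difference Ce minus St was −4.18 for the members, against 0.01 for all genes. It was largest for Sst, at −6.45 (SE 0.43), followed by Sstr2 at −5.70 (SE 0.25), Npy5r at −5.15 (SE 0.37), Sstr4 at −5.04 (SE 0.20) and Npy2r at −4.64 (SE 0.34). It was −3.71 (SE 0.12) for Npy, −3.30 (SE 0.14) for Npy1r, −3.01 (SE 0.15) for Sstr1 and −2.06 (SE 0.25) for Cort. These values are on the scale of log2 of the normalized count plus 1 and understate the change of genes that are low in the Ce. Limma adjusted P-values of these 9 ranged from 1.05e-13 for Npy to 9.26e-07 for Cort. Among the 15213 genes tested, ordered by the size of the difference toward the St, Sst ranked 85th, Sstr2 151st and Cort 1056th. The genes called as higher in the St numbered 6017. Without CeHi replicate 3 the difference was −6.84 (SE 0.08) for Sst, −5.91 (SE 0.16) for Sstr2 and −5.46 (SE 0.24) for Npy5r. For Npy the region difference was −4.39 (SE 0.16) in Co and −3.04 (SE 0.17) in Hi mice.

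Levels of different genes can be compared per kilobase of exon, and on this scale the order of the members changed with the region. In StCo, Sst came first at 12556 normalized counts per kilobase, followed by Npy at 6172 and Sstr1 at 456, and the samples of these neighbours did not overlap. Npy1r (298), Sstr2 (249), Sstr4 (219), Npy2r (195), Sstr3 (121) and Npy5r (106) followed, and each neighbouring pair from Npy1r downward overlapped until Cort, which was last at 64.1. In StHi the first 3 were the same, at 11991, 5736 and 408, and Sstr2 (231) preceded Npy1r (219), with overlap. In CeCo the order was led by Npy, at 294 per kilobase, above Sstr3 and Sst, which overlapped at 118 each. Sstr1 (53.0), Npy1r (25.5), Cort (17.1) and Npy2r (8.59) came next, each apart from the member before it. Sstr4 (6.71), Sstr2 (2.93) and Npy5r (1.86) were last, where Sstr4 overlapped with Npy2r, and Npy5r with Sstr2. In both St groups Sst and Npy stood above every receptor, and in CeCo Sst did not separate from its receptor Sstr3. In CeHi all neighbours in the order overlapped when replicate 3 was included.

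The make-up of the 4 somatostatin receptors among the members differed between regions more than between lines. Sstr5, which is not a member, is left out of the sums below. Its level per kilobase was 88.3 in StCo and 121 in StHi, where Sstr3 stood at 104, but 0.316 in CeCo and 0.529 in CeHi. Of the summed level per kilobase of the 4 somatostatin receptors, Sstr3 held 65.0% ± 5.87 (SD, n = 4) in CeCo, and in CeHi 58.4% ± 8.03 (n = 4), but 11.5% ± 0.950 (n = 4) in StCo and 10.8% ± 2.11 (n = 3) in StHi. Without CeHi replicate 3 the CeHi shares were 62.4% ± 1.66 (n = 3) for Sstr3 and 31.6% ± 2.42 for Sstr1. Sstr1 held 29.6% and 34.3% in the Ce groups and 43.8% and 43.1% in the St groups. Sstr2 and Sstr4 held 1.64% and 3.73% in CeCo, and 23.9% and 20.8% in StCo. Among the NPY receptors Npy1r held 71.9% ± 12.6 (n = 4) in CeCo, 66.5% ± 6.91 (n = 4) in CeHi (67.6% ± 7.97 without replicate 3, n = 3), 50.0% ± 3.76 (n = 4) in StCo and 41.4% ± 0.471 (n = 3) in StHi. The Npy1r share was at 45.6% to 54.4% in StCo and at 40.9% to 41.9% in StHi, without overlap. Npy2r made up the rest in the main, with 32.2% ± 4.97 in StCo and 40.0% ± 2.08 in StHi.

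**Figure D4:**
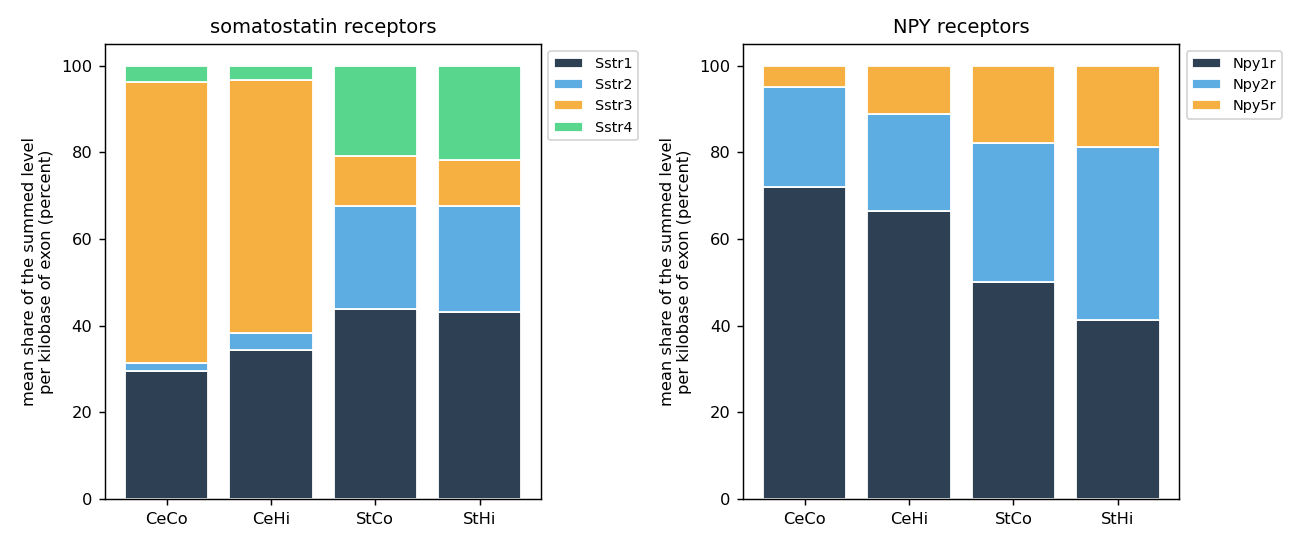
Mean share of each receptor, in percent, in the summed level per kilobase of exon of the somatostatin receptors without Sstr5 (left) and NPY receptors (right) in the 4 groups. Sstr3 fills 65.0% of the CeCo bar and 11.5% of the StCo bar, and Npy1r falls from 50.0% in StCo to 41.4% in StHi.

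Of the other ligands and receptors of both systems, 1 of 5 was expressed well enough to be tested. Sstr5 was at 197 to 298 normalized counts in StCo and 307 to 353 in StHi, without overlap, as were 13.1% of all genes. In the Ce it was at 0 to 3.17, which is at most 3 fragments per sample. Its line difference in the St, −0.46 (SE 0.46), was not called (limma adjusted P-value 0.753). This SE is shared with the Ce and carries the spread of those few fragments, so the missing call does not show that the lines are alike in the St. Sstr5 was called between regions. The ligand genes Pyy and Ppy, which encode peptide YY and pancreatic polypeptide, were at 0 in all 15 samples. The receptor genes Ppyr1 (the Y4 receptor) and Npy6r reached at most 3.15 and 5.25 normalized counts.

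Genes of the same neurons and of the same signalling steps were followed in 4 more lists, and none of them was called between lines within a region. Over these and the list above, 49 of 53 genes were tested, and 0 passed the limma test in the Ce, 0 in the St and 0 in the interaction. An unadjusted P-value under 0.05 was held by 9, 8 and 9 of the 49, and by 2990, 2141 and 1454 of all 15213 genes tested. The lowest adjusted P-value was 0.0629 in the Ce, for the peptide Cck, and 0.0639 in the St, for the granule protein Scg3. In edgeR the counts of these genes that passed were also 0.

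Of the 14 genes of Npy and Sst interneurons, 14 differed between regions, 12 of them higher in the St, with a median log2 difference of −1.42 against 0.01 over all genes. Lhx6, a transcription factor that these neurons need for their development, had a difference of −7.14 (SE 0.14) between regions and −0.31 (SE 0.19) between lines in the Ce, or −0.21 (SE 0.20) without CeHi replicate 3, and neither was called. Nos1, the neuronal nitric oxide synthase, which granule cells and molecular layer interneurons also make, was higher in the Ce by 0.57 (SE 0.07) and had a line difference there of 0.32 (SE 0.10, limma adjusted P-value 0.0775), or 0.38 (SE 0.11, adjusted P-value 0.0583) without CeHi replicate 3, in the direction opposite to that of Npy. Chodl, a marker of the long-range projecting type of these neurons, had −0.24 (SE 0.57) in the Ce and 0.46 (SE 0.39) without CeHi replicate 3, so the sign rested on that library. The 1 gene of this list called between lines over both regions was the GABA transporter of synaptic vesicles Slc32a1, at −0.19 (SE 0.06, adjusted P-value 0.0404).

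Of the 8 genes of other striatal interneurons, 8 differed between regions, 6 of them higher in the St. These included Chat, the acetylcholine-synthesizing enzyme, at −7.99 (SE 0.28). Pvalb and Calb2, calcium-binding proteins that are also abundant in Purkinje cells, molecular layer interneurons or granule cells, were higher in the Ce by 4.47 (SE 0.14) and 3.08 (SE 0.17). Cck had a line difference in the Ce of −0.75 (SE 0.22), which was −0.67 (SE 0.23, limma adjusted P-value 0.152) without CeHi replicate 3, and Calb2 one in the St of −0.83 (SE 0.25, adjusted P-value 0.110).

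The machinery that makes and releases the peptides was expressed in both regions. Of its 12 genes 11 differed, with 9 higher in the St. Cpe, a carboxypeptidase that trims prohormones, was higher in the St by 1.36 (SE 0.05) on the log2 scale and Pam, which amidates peptides such as NPY, by 2.23 (SE 0.05). The granins Chgb and Scg3 were higher in the Ce, by 1.07 (SE 0.07) and 0.64 (SE 0.04). Between lines, Mme, the peptidase neprilysin, which degrades somatostatin, had the lowest adjusted P-value of the list in the Ce, with −0.51 (SE 0.17) and 0.0951, or −0.50 (SE 0.19) and 0.165 without CeHi replicate 3.

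The downstream genes were split between the regions. Of the 14 genes of Gi/o proteins, potassium channels and adenylyl cyclases 13 differed, with 7 higher in the Ce against 6 in the St, and a median of 0.08. Adcy5, the main adenylyl cyclase of the striatum, had −4.30 (SE 0.06), and Adcy1, the form abundant in granule cells, 2.21 (SE 0.09). Between lines the median of the list was −0.07 for the Ce, 0.09 for the St, and the smallest adjusted P-value in the Ce was 0.140, for Gnai1 at −0.14 (SE 0.05), which was 0.220 without CeHi replicate 3.

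The genes whose log2 values followed Npy most closely over the 8 Ce samples were Tshz2 (Pearson's r = 0.991), 1500009C09Rik (0.989), Syce2 (0.988), Cygb (0.985) and Ramp1 (0.985). These samples share the difference between the lines, to which the correlation is bound, and without CeHi replicate 3 the values were 0.987, 0.982, 0.981, 0.976 and 0.985 over 7 samples. Over the 7 St samples the closest genes were BC003331 (0.984), Twistnb (0.973), Cmya5 (0.972), Zfp825 (0.967) and Pdcd5 (0.967), and none of them was among those of the Ce. For Sst the closest genes in the Ce were Cpne5 (0.992), Nrgn (0.984), Six3 (0.983), Ttyh3 (0.981) and 4930539E08Rik (0.978), and these values rested on CeHi replicate 3. Without it they were 0.838, 0.602, 0.605, 0.844 and 0.641. In the St they were BC048403 (0.994), Dph1 (0.986), LOC100862120 (0.980), Anp32a (0.978) and Cacna1a (0.973). With 7 or 8 samples and 15213 genes such values are descriptions only.

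Other libraries also moved with some of the members in the St. StHi replicate 1 was the lowest St sample for all 7 cortical excitatory neuron markers, and it was the lowest for Sstr1 (665), Sstr2 (386) and Sstr3 (311). StHi replicate 0 was the highest for 4 of 7 hypothalamic peptide genes, whose sum in StHi ranged from 333 to 2773 normalized counts, and it held the highest Cort (68.7). The part of these transcripts in the St values was not tested. Choroid plexus markers ranged from 784 to 113783 normalized counts in sum over the Ce samples, in both lines.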

How the data were processed

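RNA-seq of the cerebellum and striatum was analysed in 15 samples, grouped by their deposited labels. Per the submitters' processing notes, reads were aligned to GRCm38 (mm10) with TopHat2, and Cuffdiff and Cuffnorm 2.2.1 were used. The deposited gene expression signal is a fragment count that the authors scaled with 1 factor for each sample. Gene length was not divided out, although the table is named for FPKM. Between 99.6% and 99.8% of low values (up to 20.5 steps, tolerance 0.1 step) were whole multiples of the value of 1 fragment. In 5 samples the smallest value was a fraction of this step, so the step was estimated over all low values. The total per sample was 38499264 to 43669012 normalized counts.

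The 15213 genes that reached a CPM of 1 in 3 samples or more were scaled with TMM factors (edgeR 4.0.16), transformed as log2 of the value plus 1 and fitted over the 4 group means with limma 3.58.1 (R 4.3.3, trended and robust moderation, Benjamini-Hochberg adjustment over all genes, called under 0.05). The line difference was taken as Co minus Hi in each region, between the regions (interaction) and as the mean of both, and the region difference as Ce minus St. As an alternative, the edgeR quasi-likelihood test on the recovered fragments called 952 genes in the Ce, 421 in the St, 100 for the interaction and 1323 for the line over both regions, where limma called 903, 405, 81 and 1290. Levels per kilobase used the exon union of GENCODE M21. The model was tested on simulated data, where the share of false calls was above the threshold of 0.05 for the line in both regions and for the interaction.

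Genes named are the members, genes of 5 lists of related genes and marker genes, and the 5 genes most correlated with Npy and with Sst in each region. The members and lists were chosen with earlier results of these data known, and the genes of the marker lists that are named were picked after their values were seen. Alternatives were the pseudocount, the filter, the scaling, the test, sample weights, a replicate block, each region alone and each sample left out. The list counts under these alternatives, and the values of list genes and receptor shares without CeHi replicate 3, were added after seeing the data. Counting intervals and floors cover counting error only.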

Additional observations from a re-analysis of the deposited data

Results flagged for a closer look

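Of 30 sets of 4 values, one for each member in CeCo, CeHi and StCo, 5 held a sample farther from the others than Dixon's 95% limit allows, and chance gives this in about 1 in 20 sets. All 5 were in CeHi replicate 3. The sets share libraries and are not independent, so the rate of 1 in 20 holds for a single set and not for the 5 together. The values were 613 normalized counts of Sst, 155 of Npy1r, 38.0 of Npy5r, 182 of Sstr1 and 31.7 of Sstr2. This library also held the highest Ce values for 8 of 11 medium spiny neuron markers and for Vip and Nrgn, but the lowest for the marker Pde10a. The part of these transcripts in the 5 values was not tested.

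The line difference of Npy was not the same in both regions, with an interaction of −1.355 on the log2 scale (limma adjusted P-value 0.0172).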

How the results depend on the processing

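Each result was recomputed under up to 25 alternatives. Npy was called in the Ce in all 25, with log2 differences from −1.39 to −1.08, though the replicate block within line does not check this difference, as given below. The 9 members called between regions were called in all 24. The number of members called in the St was 1 in place of 0, Npy1r, with each region fitted alone, and ranged from 0 to 1 with a sample left out. For the interaction it was 0 in place of 1 with the replicate block within line, and 0 to 1 with a sample left out. For the line over both regions it was 2 in place of 1 with sample quality weights, and 1 to 2 with a sample left out. The replicate number was not treated as a pairing in the main fit. In Co, residuals of same-numbered Ce and St samples correlated with r from 0.171 to 0.278, and those of differently numbered samples from −0.163 to 0.0152. In Hi, r was −0.0751 to 0.0513 for the same number and −0.08 to 0.0731 for different numbers. The numbers may thus mark samples of 1 mouse in Co, which the main fit, with all 15 samples taken as separate, does not use. With the block within line the interaction of Npy lost its call. With the replicate block the members called were 1 in the Ce, 0 in the St, 1 for the interaction and 9 between regions. The line over both regions cannot be estimated with the block within line. Under that block a line difference within a region compares fitted levels at replicate 0 only, so it does not check the difference between the groups. It is still counted among the 25 alternatives, for Npy, for Npy1r and for the changes of sign. Of the 5 lists, no alternative called more than 2 genes of a list within a region. The sign of the uncalled Ce differences of Sst, Npy1r, Npy2r and Sstr1 changed in 2 to 5 of 25 alternatives. In the Ce, Npy5r rested on 2 to 36 and Sstr2 on 5 to 30 fragments per sample, which limits their precision.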
